A study of Rattus norvegicus with 8 samples.

Results

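Collagen VI is a microfibrillar collagen of the pericellular and interstitial matrix. In the classical molecule the α1 and α2 chains, encoded by Col6a1 and Col6a2, join with an α3 chain, encoded by Col6a3, and without α3 the assembled molecule is not secreted normally. The α5 and α6 chains, encoded by Col6a5 and Col6a6, are homologous to α3 and are held to take its place in some tissues, as is the rodent chain encoded by Col6a4. In the vessel wall collagen VI lies around smooth muscle cells and in the adventitia, and mutations of the α1, α2 and α3 genes cause congenital muscle disease. The chains described here are Col6a1, Col6a2, Col6a3, Col6a5 and Col6a6, taken by gene symbol from the count table. They are 5 of its 37209 genes, and all 5 had enough counts for the differential test, as had 14359 genes in all. Col6a4 is given beside them and is not counted among the 5.

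mRNA was sequenced from 8 carotid arteries of male Sprague-Dawley rats, which weighed 400 g on average. In 4 of them, from the left side, the intima had been injured with a balloon catheter, and they were taken at 2 weeks. The other 4 were undamaged right carotid arteries, which the study used as self-controls, so the control side belongs to animals that had undergone surgery. Every value is of a whole artery, in which fewer cells of a type and less RNA per cell cannot be told apart. The rats were otherwise not described as carrying any mutation, transgene or drug. The labels do not say that arteries with the same number came from the same rat. The main tests treated the 8 arteries as independent, although self-controls share rats with injured arteries. Their p-values set the group difference against the spread between these arteries.

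The total count per artery lay between 11459632 and 16658089, so that 3 counts, the smallest level read as present, were 0.18 to 0.262 CPM (a read count relative to the library total). All other levels in CPM are also scaled with edgeR's TMM factors. The protocol text speaks of prefrontal cortex, whereas the other labels name the carotid artery, and 5 brain neuron markers reached at most 34 counts in any artery, too few for the test. The summed level of 10 contractile smooth muscle markers was 40200 to 54200 CPM in control arteries 1 to 3. Control artery 4 stood apart, with 18700 CPM of these markers and 6280 CPM of 9 sympathetic neuron markers against 1.31 to 4.23 CPM in the other controls. Across genes, its correlation with control arteries 1 to 3 was 0.830 to 0.852 in log2 CPM, against at least 0.976 among those arteries. Injured artery 3 had 1090 CPM of the sympathetic neuron markers, against 9.68 to 87.8 CPM in the other injured arteries, and correlated with those at 0.903 to 0.941. Values that turned on control artery 4 are given with and without it.

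The promoters of Col6a1 and Col6a3 are shown because Col6a3 was the chain called and Col6a1 is the chain that its ratio was taken to. The sequences are from RefSeq (GRCr8), with 250 bases before and 50 bases from the annotated start, 5′ to 3′ on the gene's strand. The window of Col6a1 is chr20:11905440-11905739 on the plus strand, and that of Col6a3 is chr9:98886909-98887208 on the minus strand. Capitals mark the match to a motif.
Col6a1: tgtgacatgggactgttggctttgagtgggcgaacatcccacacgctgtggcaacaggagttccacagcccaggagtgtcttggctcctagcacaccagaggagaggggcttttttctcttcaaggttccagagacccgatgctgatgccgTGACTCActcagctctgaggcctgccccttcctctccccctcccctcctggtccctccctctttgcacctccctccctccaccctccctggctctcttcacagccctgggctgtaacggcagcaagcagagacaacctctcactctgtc
Col6a3: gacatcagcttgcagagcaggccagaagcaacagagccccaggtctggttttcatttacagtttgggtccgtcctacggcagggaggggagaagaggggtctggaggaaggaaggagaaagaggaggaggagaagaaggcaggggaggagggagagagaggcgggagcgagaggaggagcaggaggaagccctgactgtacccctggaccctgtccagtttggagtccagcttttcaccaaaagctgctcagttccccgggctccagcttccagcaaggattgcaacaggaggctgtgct
Both strands of each window were searched for the letters TGANTCA (the AP-1 site, which reads the same on both strands), GGGCGG (the GC box), TATAAA (the TATA box) and CATTCC (the TEAD site), which do not overlap in the window shown. Col6a1 held 1 AP-1 match, which began at position -99 from the start, and Col6a3 held none of the 4 motifs. The AP-1 letters occurred in 7.33% of 33469 rat promoters of the same length, the GC box in 33.1%, the TATA box in 14.2% and the TEAD site in 14.2%. Of the remaining chains with an entry, Col6a6 had 2 GC boxes and 1 TEAD site, and Col6a5 and Col6a4 had none of the 4 motifs. A match is a description of the letters only, as is the lack of one.

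To compare collagen VI expression between the injured and control arteries, each chain was first examined in every artery. Col6a3 rose after injury, by 2.57-fold, while Col6a1, Col6a2, Col6a5 and Col6a6 did not pass the test. The threshold for a call was an FDR (false discovery rate) under 0.05 with a fold change above 2, in edgeR's quasi-likelihood test over all genes tested. Of the 5 chains, 1 was called higher and 0 were called lower, and of all genes tested 8.31% were called higher and 2.57% lower (10.9% in either direction). Likewise, 1 of the 5 chains had every injured artery above every control artery, against 14.2% of all genes tested. With 5 chains, a count of 1 does not set them apart from the genes at large. Levels in CPM are not divided by transcript length, so they are not compared between chains.

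Col6a1, whose product is the α1 chain, was measured at 1909, 1870, 1864 and 685.0 CPM in control arteries 1 to 4. In injured arteries 1 to 4 it was at 1944, 2453, 1513 and 2105 CPM. Control arteries 1 to 3 lay within the range of the injured arteries, and control artery 4 lay far below every other artery. The mean was 1582 ± 598.3 CPM (SD, n = 4) in the controls and 2004 ± 389.8 CPM (SD, n = 4) after injury. This gave a log2 fold change of 0.34 (standard error 0.33, FDR 0.531), and without control artery 4 it was 0.09 (standard error 0.16, FDR 0.721).

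Col6a2 encodes the α2 chain, which joins α1 in the same molecule. Its level was 2122, 2056, 2152 and 796.6 CPM in control arteries 1 to 4, and 2140, 2684, 1675 and 2294 CPM in injured arteries 1 to 4. The arteries fell in nearly the same order as for Col6a1, with control artery 4 lowest and injured artery 2 highest, and the groups overlapped. The means were 1782 ± 657.9 and 2198 ± 417.0 CPM (SD, n = 4 each). For Col6a2 the log2 fold change was 0.30 (standard error 0.33, FDR 0.571), and it was 0.05 (standard error 0.16, FDR 0.826) without control artery 4.

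Col6a3 encodes the α3 chain, the largest of the classical chains. Its level was 573.2, 620.4, 697.2 and 255.2 CPM in control arteries 1 to 4, and 1186, 1724, 1176 and 1433 CPM in injured arteries 1 to 4. The groups did not overlap, and the lowest injured artery lay well above the highest control artery. The mean went from 536.5 ± 194.4 to 1380 ± 258.6 CPM (SD, n = 4 each), a log2 fold change of 1.36 (standard error 0.31, FDR 0.0207). Control artery 4, at 44.52% of the lowest other control, again lay below the rest, and without it the log2 fold change was 1.13 (standard error 0.16, FDR 0.0021). The call of Col6a3 was lost without control artery 1 (FDR 0.0538), control artery 2 (FDR 0.0508), injured artery 2 (FDR 0.0671) or injured artery 4 (FDR 0.065), and the log2 fold change lay between 1.13 and 1.51 with any 1 artery left out. It was also lost with the replicate number as a block (FDR 0.0604) and in a test against a fold of 2 in place of no change (FDR 0.512), whereas DESeq2 gave an FDR of 0.00023.

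**Figure D1:**
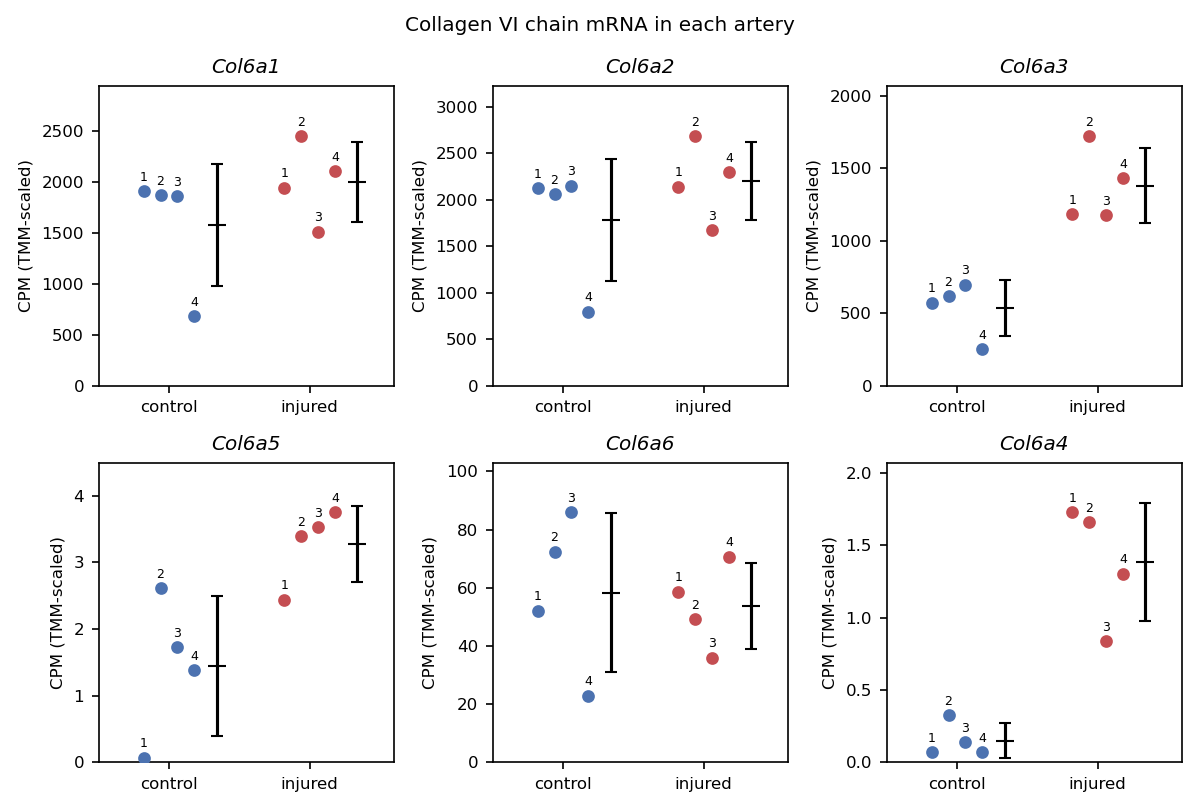
Level of each collagen VI chain (y axis, TMM-scaled CPM, a linear axis from 0) in the 4 control and 4 injured arteries, numbered as in the labels, with the mean and SD of each group beside its points. Col6a3 and Col6a4 are higher in every injured artery than in every control artery, and control artery 4 is the lowest artery for Col6a1, Col6a2, Col6a3 and Col6a6.

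Col6a5 was a low gene, with 1, 32, 25 and 20 counts in control arteries 1 to 4 and 41, 47, 63 and 46 counts in injured arteries 1 to 4. These were 0.07175, 2.614, 1.726 and 1.385 CPM in the controls, where control artery 1 was under the 3-count floor, and 2.443, 3.396, 3.524 and 3.749 CPM after injury. The groups overlapped, since control artery 2 lay above injured artery 1. Col6a5 had a log2 fold change of 1.18 (standard error 0.68, FDR 0.287), and without control artery 1 it was 0.77 (standard error 0.31, FDR 0.151).

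Col6a6 was measured at 52.09, 72.47, 85.88 and 22.98 CPM in control arteries 1 to 4, and at 58.69, 49.28, 35.91 and 70.75 CPM in injured arteries 1 to 4. The controls spread more widely than the injured arteries and enclosed all of them. The mean of Col6a6 was 58.36 ± 27.37 CPM in the controls and 53.66 ± 14.74 CPM after injury (SD, n = 4 each). Its log2 fold change was -0.12 (standard error 0.39, FDR 0.859), and -0.39 (standard error 0.25, FDR 0.264) without control artery 4. The sign turned with library totals in place of TMM (0.07), without control artery 3 (0.12) and without injured artery 3 (0.03), so Col6a6 had no direction.

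Col6a4, the remaining rodent chain, was nearly absent from the controls, with 1, 4, 2 and 1 counts, and had 29, 23, 15 and 16 counts in injured arteries 1 to 4. Its level went from 0.1515 ± 0.1212 to 1.383 ± 0.4078 CPM (SD, n = 4 each) without overlap. Col6a4 had a log2 fold change of 3.16 (standard error 0.52, FDR 0.0056), called with any 1 artery left out, and it rests on few counts. The low-count filter could keep Col6a4 only through the injured arteries, where it is high, so the call is a description. Where at least 10 counts were required in every artery, Col6a4 was not tested. Col6a4, Col6a5 and Col6a6 have sequence in common, and how the counting treated reads that could come from more than 1 of them is not given in the sources used here.

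The differential fits of the chains were set side by side to show how far each value turned on the choice of arteries and scaling. The log2 fold change of Col6a1 lay between 0.09 and 0.45 over the 8 fits without 1 artery, and that of Col6a2 between 0.05 and 0.41, with 0 of 8 calls for both. Scaling to library totals alone in place of TMM moved the median log2 fold change of all genes from -0.06 to 0.12, and gave 0.53 for Col6a1 and 1.55 for Col6a3, the latter called with an FDR of 0.00866.

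**Figure D2:**
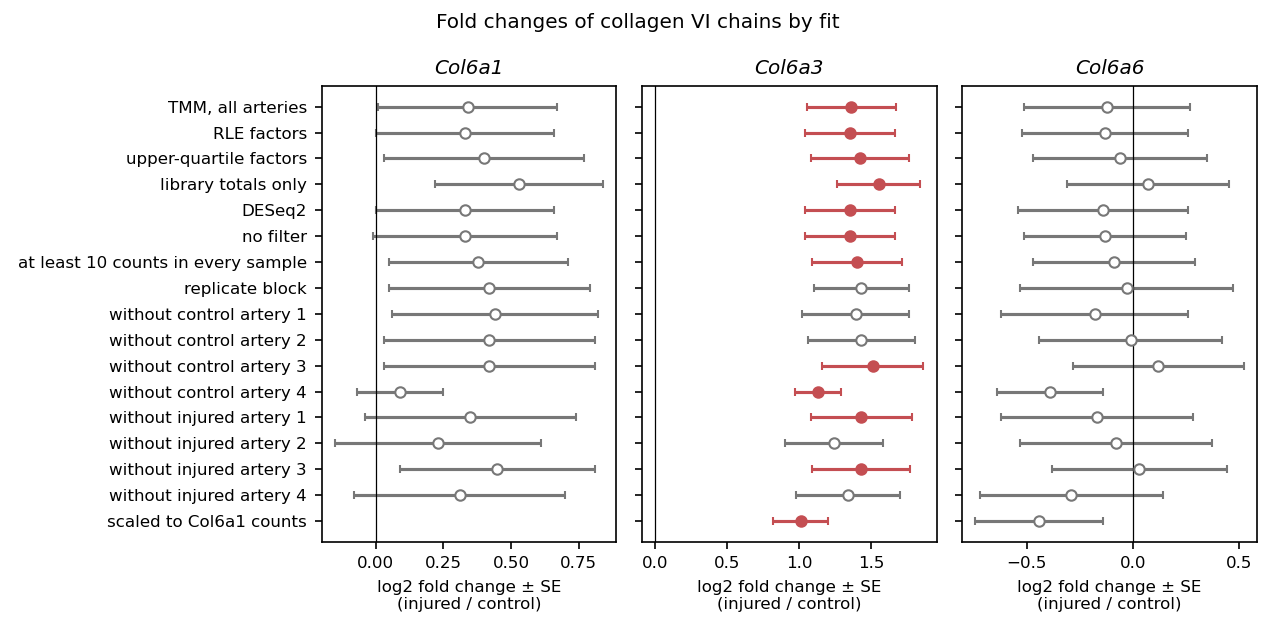
Log2 fold change (x axis, injured over control, with its standard error) of Col6a1, Col6a3 and Col6a6 in each fit (rows), where filled points passed FDR and fold thresholds and open points did not. Col6a3 stays between 1.01 and 1.55, Col6a1 stays below its threshold throughout, and Col6a6 lies on both sides of 0.

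To remove differences between libraries, the chains were next compared as ratios of counts within each artery. A ratio needs no library scaling, and a transcript length that is the same in both groups cancels in the difference between them. Whether the lengths were the same was not tested. Over 6 ratios, each was compared with an exact two-sided permutation test, in which 4 against 4 arteries give 70 relabellings and a smallest p of 0.0286. In these ratios Col6a2 followed Col6a1 closely in both groups, and Col6a3 was about 2.01-fold higher relative to Col6a1 after injury.

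The ratio of Col6a2 to Col6a1 was 1.11, 1.10, 1.15 and 1.16 in control arteries 1 to 4. In injured arteries 1 to 4 it was 1.10, 1.09, 1.11 and 1.09. All 8 arteries thus fell within a narrow range, control artery 4 included, and the groups overlapped. The mean ratio was 1.13 ± 0.0311 in the controls and 1.10 ± 0.00754 after injury (SD, n = 4 each). The log2 difference was -0.04 (standard error 0.02, exact permutation p = 0.0857, adjusted over the 6 ratios 0.129).

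The ratio of Col6a3 to Col6a1 was 0.300, 0.332, 0.374 and 0.373 in control arteries 1 to 4, and 0.610, 0.703, 0.778 and 0.681 in injured arteries 1 to 4. Control artery 4, which stood apart in the levels, lay among the other controls in this ratio, and no injured artery came near the controls. The mean ratio went from 0.345 ± 0.0354 to 0.693 ± 0.0691 (SD, n = 4 each), a log2 difference of 1.01 (standard error 0.10). The exact permutation p was 0.0286, the smallest that the design allows, and the p adjusted over the 6 ratios was 0.0571, which misses 0.05. For a ratio at the smallest p, the adjusted value depends on how many of the 6 ratios reach it. It does not depend on the size of the difference. Of all other genes tested, 5.61% had a count ratio to Col6a1 that was higher in every injured artery than in every control artery.

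Against Col6a2 the values of Col6a3 were alike, at 0.270, 0.302, 0.324 and 0.320 in control arteries 1 to 4 and 0.554, 0.643, 0.702 and 0.624 in injured arteries 1 to 4. The mean went from 0.304 ± 0.0246 to 0.631 ± 0.061 (SD, n = 4 each), with a log2 difference of 1.05 (standard error 0.09, exact permutation p = 0.0286, adjusted 0.0571). Because Col6a1 and Col6a2 kept nearly the same ratio, this comparison is not independent of the one with Col6a1.

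A fit of all genes with the libraries scaled to their Col6a1 counts, chosen after seeing the data, put Col6a3 at a log2 fold change of 1.01 (standard error 0.19, FDR 0.0155), which was called. In that fit 3.31% of the genes tested were called higher. Col6a4 had a log2 fold change of 2.80 (FDR 0.0144) and was called, and Col6a2 one of -0.04 (FDR 0.819).

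**Figure D3:**
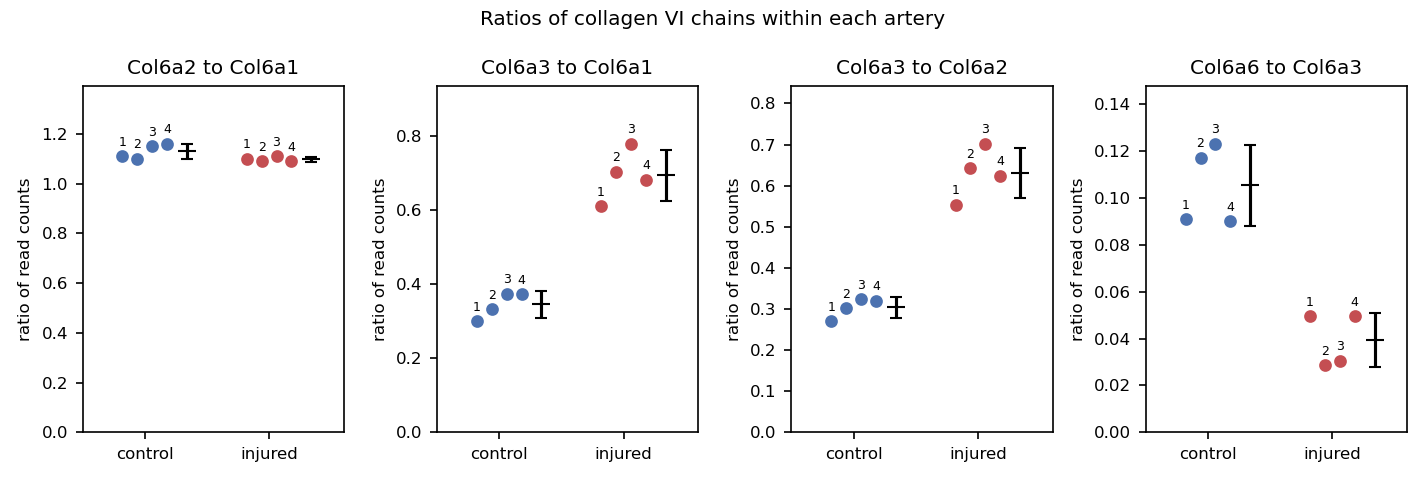
Ratio of read counts between chains within each artery (y axis, linear from 0), for 4 pairs of chains, with the mean and SD of each group beside its 4 points. The ratio of Col6a2 to Col6a1 is nearly level at 1.09 to 1.16, those of Col6a3 to Col6a1 and Col6a2 are higher in every injured artery, and that of Col6a6 to Col6a3 is lower in every injured artery.

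The reads of all 6 chains added up to 4656, 4622, 4801 and 1761 CPM in control arteries 1 to 4 and 5333, 6915, 4405 and 5907 CPM in injured arteries 1 to 4. The sums overlapped, as injured artery 3 lay below the 3 higher controls. Of these reads, Col6a3 made up 12.3%, 13.4%, 14.5% and 14.5% in control arteries 1 to 4, and 22.2%, 24.9%, 26.7% and 24.3% in injured arteries 1 to 4. The share of Col6a1 was 39.8% ± 1.1 in the controls and 35.5% ± 0.867 after injury, and that of Col6a2 was 45.0% ± 0.475 and 39.0% ± 0.871 (SD, n = 4 each). The shares were not tested, since they carry the same counts as the ratios, and as shares of reads they also depend on transcript length.

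The α3-like chains were then compared with Col6a3 itself. The ratio of Col6a6 to Col6a3 was 0.0909, 0.117, 0.123 and 0.0901 in control arteries 1 to 4, and 0.0495, 0.0286, 0.0305 and 0.0494 in injured arteries 1 to 4. All injured arteries were below all controls. The mean went from 0.105 ± 0.0172 to 0.0395 ± 0.0115 (SD, n = 4 each), a log2 difference of -1.45 (standard error 0.25, exact permutation p = 0.0286, adjusted 0.0571). This ratio holds the rise of Col6a3 in its denominator, and 69.5% of all other genes tested had a ratio to Col6a3 that was lower in every injured artery than in every control artery.

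The ratio of Col6a5 to Col6a3 was 0.000125, 0.00421, 0.00248 and 0.00543 in control arteries 1 to 4, and 0.00206, 0.00197, 0.003 and 0.00262 in injured arteries 1 to 4. The injured arteries lay inside the range of the controls, and the log2 difference was 0.39 (standard error 1.13, exact permutation p = 0.943, adjusted 0.943). Without control artery 1, where Col6a5 had a count of 1, the difference was -0.71.

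The ratio of Col6a6 to Col6a5 was 726, 27.7, 49.8 and 16.6 in control arteries 1 to 4 and 24.0, 14.5, 10.2 and 18.9 in injured arteries 1 to 4. The groups overlapped, and the value of control artery 1 again rests on that count of 1. The log2 difference was -1.84 (standard error 1.11, exact permutation p = 0.114, adjusted 0.137). It was -0.81 without control artery 1 (exact permutation, adjusted p = 0.2) and -2.44 without control artery 4 (exact permutation, adjusted p = 0.0429).

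Among the cell type marker lists, some held genes called between the groups and others held none. All 10 macrophage markers were measured, and their summed level was 223 to 328 CPM in the 4 controls and 1850 to 2730 CPM in the injured arteries, with 9 of 10 called higher. The contractile smooth muscle markers summed to 11500 to 17900 CPM after injury, with 7 of 10 called lower, and each of the 10 was lower in control artery 4 than in every other control. The 8 fibroblast markers summed to 4450 to 5130 CPM in control arteries 1 to 3, 2450 CPM in control artery 4 and 2610 to 4300 CPM after injury, with 1 called higher and 2 lower of 7 tested, and 7 of 8 were lower in control artery 4 than in every other control. Skeletal muscle markers summed to 87.1 to 260 CPM in the controls and 354 to 1340 CPM in the injured arteries, with 10 of 12 called higher. Cartilage markers summed to 17.5 to 27.8 CPM in the controls and 119 to 398 CPM after injury, with 3 called higher and 1 lower of 5 tested. The 7 endothelial markers summed to 813 to 2190 CPM and 725 to 1040 CPM in the 2 groups, with 3 called higher and 1 lower. Adipocyte markers (119 to 871 CPM and 230 to 462 CPM) had 0 of 7 called, and Schwann cell markers (308 to 1190 CPM and 490 to 1680 CPM) had 0 of 7 tested called. Of the sympathetic neuron markers, 0 of the 4 tested were called. The part of these cell types in the level of any chain was not tested.

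Genes whose products bind, make or cut collagen VI were described by lists. Of 9 receptors, all tested, 1 was called higher and 0 lower, against 8.31% and 2.57% of all genes tested. The median log2 fold change was 0.30, against -0.06 for all genes tested, and 1 of 9 does not set the receptors apart. Itga11, the receptor at that median, had a log2 fold change of 0.08 without control artery 4. The median of all genes was not computed without that artery, so the list medians are descriptions that depend on it. Itga2, the integrin α2 subunit that binds collagens with β1, was measured at 3.516, 3.595, 3.728 and 4.915 CPM in control arteries 1 to 4 and at 8.878, 9.466, 10.52 and 7.906 CPM in injured arteries 1 to 4. Every injured artery was above every control, and the log2 fold change of Itga2 was 1.22 (standard error 0.19, FDR 0.00419), called with any 1 artery left out. Its partner Itgb1, the β1 subunit, did not pass, at 1436 ± 350.5 CPM in the controls and 897.3 ± 134.4 CPM after injury (log2 fold change -0.68, FDR 0.0731). Cspg4, the NG2 proteoglycan that binds collagen VI, had a log2 fold change of -0.38 (FDR 0.316), with 594.8 ± 173 and 456.5 ± 43.94 CPM. Without control artery 4 the FDR was 0.00307 for Itgb1 and 0.0052 for Cspg4, with log2 fold changes of -0.85 and -0.58 that stayed under a fold of 2. Antxr2 is named because it passed the FDR alone. It lay at 69.71 to 89.05 CPM in the controls and 100.7 to 128.5 CPM after injury. The log2 fold change of Antxr2 was 0.52 (standard error 0.12, FDR 0.0215), also under a fold of 2. Of the 9 receptors, 6 had a positive log2 fold change.

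Of 16 matrix partners, 14 were found by symbol and 12 had enough counts. Among these, 2 were called higher and 1 lower, against 8.31% and 2.57% of all genes tested. Their median log2 fold change was 0.13 against -0.06. The genes on either side of that median, Fbn1 and Fmod, went from 0.03 and 0.22 to -0.22 and 0.00 without control artery 4. Without control artery 4 there were 4 called, as Vwa1, a matrix protein of the pericellular space named here for that change, went from a log2 fold change of 1.61 (FDR 0.12) to 2.48 (FDR 0.00388). Bgn and Matn1 were listed at 0 in every artery. Tgfbi, a secreted adhesion protein that binds collagen VI, was measured at 65.87, 90.36, 100.6 and 65.91 CPM in control arteries 1 to 4 and at 199.4, 186.7, 248.6 and 225.2 CPM in injured arteries 1 to 4. The groups did not overlap, and its log2 fold change was 1.41 (standard error 0.18, FDR 0.00176). Matn3, a matrilin that links collagen microfibrils in cartilage, had 1, 9, 9 and 8 counts in control arteries 1 to 4 and 37, 90, 40 and 45 counts in injured arteries 1 to 4. It was called, with a log2 fold change of 2.86 (standard error 0.62, FDR 0.0163). The low-count filter could keep Matn3 only through the injured arteries, so its call is a description. With at least 10 counts required in every artery, 2 partners were called.

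Dcn encodes decorin, a small proteoglycan that binds collagen VI, and was the partner that fell. It was measured at 1608, 1910, 1986 and 989.9 CPM in control arteries 1 to 4 and 1044, 589.4, 588.3 and 709.5 CPM in injured arteries 1 to 4, so that control artery 4 lay below injured artery 1. The log2 fold change of Dcn was -1.15 (standard error 0.28, FDR 0.0277), and with 1 artery left out it was called in 2 of 8 fits, those without control artery 4 and without injured artery 1 (FDR 0.00318 to 0.0912 over the 8). It was not called with the replicate number as a block (FDR 0.0852) or with library totals (log2 fold change -0.96). Dcn is also among the fibroblast markers, with the partners Lum and Col14a1. The 2 most abundant partners were not called. Fn1, fibronectin, had a log2 fold change of 0.45 (FDR 0.438), and Fbn1, fibrillin-1, one of 0.03 (FDR 0.959), which was -0.22 (FDR 0.28) without control artery 4.

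Of 15 genes of biosynthesis and cleavage, 14 had enough counts, with 3 called higher and 0 lower, against 8.31% and 2.57% of all genes tested. Their median log2 fold change was 0.35 against -0.06. P4hb and Plod2, the genes at that median, had 0.18 and 0.16 without control artery 4. P4ha3, a prolyl 4-hydroxylase subunit that modifies collagen chains, was measured at 4.807, 8.66, 5.523 and 2.561 CPM in control arteries 1 to 4 and at 20.73, 54.56, 21.03 and 25.84 CPM in injured arteries 1 to 4. It rose without overlap (log2 fold change 2.50, standard error 0.46, FDR 0.00844). Mmp9, a gelatinase, had 0, 1, 4 and 0 counts in control arteries 1 to 4 and 51, 289, 374 and 192 counts in injured arteries 1 to 4, and was called higher with an FDR of 0.0027. The low-count filter could keep Mmp9 only through the injured arteries, so its call is a description. With at least 10 counts required in every artery, 2 genes of this list were called.

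Mmp14, a membrane-bound collagenase, was measured at 379.3, 418.5, 375.7 and 152.5 CPM in control arteries 1 to 4 and at 823.3, 1015, 585.0 and 797.6 CPM in injured arteries 1 to 4. The groups did not overlap, and control artery 4 was lowest, as it was for Col6a1, Col6a2, Col6a3 and Col6a6. The log2 fold change of Mmp14 was 1.28 (standard error 0.32, FDR 0.0305), and with 1 artery left out it was called in 2 of 8 fits, those without control artery 4 and without injured artery 3 (FDR 0.00428 to 0.0903 over the 8). With the replicate number as a block it was not called (FDR 0.0632). Mmp2, another gelatinase, and Serpinh1, the collagen chaperone, were the most abundant of this list and were not called, with log2 fold changes of 0.07 (FDR 0.905) and 0.04 (FDR 0.929). Without control artery 4 these were -0.18 (FDR 0.404) and -0.15 (FDR 0.454), so neither gene had a direction.

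**Figure D4:**
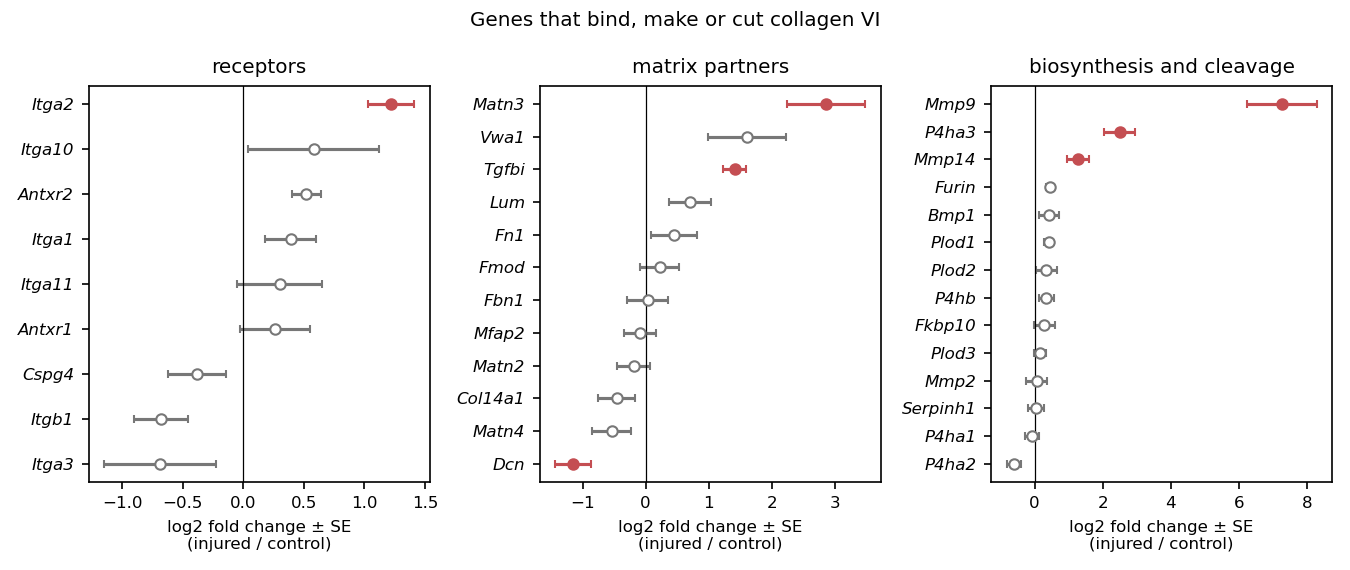
Log2 fold change (x axis, injured over control, with its standard error) of each tested gene that binds collagen VI at the cell surface, in the matrix, or takes part in making or cutting it, ordered by value within each list. Filled points passed the FDR and fold thresholds, and these were Itga2 among receptors, Matn3, Tgfbi and Dcn among partners, and Mmp9, P4ha3 and Mmp14 in the third list. The value of Mmp9 rests on at most 4 counts in a control artery.

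The genes most like the chains across arteries were listed among 10256 genes, as a description over 8 arteries that share library and depth effects. With the mean log2 CPM of Col6a1, Col6a2 and Col6a3, the highest Pearson correlations were those of Gjc1 (0.994), LOC684122 (0.994), Desi2 (0.991), Loxl1 (0.991) and Arse (0.990). Without control artery 4 they were Cdk11b (0.988), Pnn (0.987), Col5a2 (0.983), Zranb2 (0.982) and Ppic (0.980), and 0 of the 5 genes were shared, so the list over 8 arteries rests on that library. For deviations from the group means they were Rest (0.998), B3gnt9 (0.997), Ppic (0.997), Ptpn21 (0.996) and Grin2d (0.996). Of these, 3 were shared without control artery 4 and 1 without control artery 1.

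Col6a5 was most like Gpihbp1 (0.988), Glul (0.936) and Mme (0.930), of which 2 were shared without control artery 4 and 0 without control artery 1, so this list rests on the artery with a count of 1. Col6a6 was most like LOC100910212 (0.974), Mfap2 (0.971) and Mettl20 (0.970), of which 1 was shared without control artery 4 and 1 without control artery 1. Leaving out these arteries in the lists of like genes was chosen after seeing the data.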

How the data were processed

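mRNA of 4 injured and 4 control rat carotid arteries was sequenced. The authors deposited 1 table of read counts per gene, listed by symbol and not normalized; the submitters' processing notes name HISAT2 2.0.4, while the counting tool, genome build, annotation and use of strand are not given in the sources used here. All 8 count columns matched a label, and 0 were left unused.

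Counts were normalized with TMM factors in edgeR 4.0.16 (R 4.3.3), genes with low counts were removed with filterByExpr, and groups were compared with the quasi-likelihood test and Benjamini-Hochberg adjustment over all 14359 genes tested. Called genes had an FDR under 0.05 and a fold above 2, the criteria of the study, which used DESeq. Levels are CPM with the SD over 4 arteries. No pair of arteries in a group agreed within counting noise (chi-square per gene at least 15.9). Floors of 3 counts cover counting error only.

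Chain ratios used counts plus 0.5 in the tests, with log2 differences compared by exact two-sided permutation of 4 against 4 arteries and adjusted over 6 ratios. The members, lists and tests were chosen with earlier results of these data known. In each list the called genes and the 2 with the highest mean CPM are named. The other genes of the lists are summarised in counts. Likeness used genes with an average log2 CPM above 3. Alternatives were other scalings, DESeq2 1.42.0, other filters and thresholds, the replicate number as a block, other pseudocounts (0.1 and 2) and each artery left out. The scripts were tested on simulated data with known changes.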

Additional observations from a re-analysis of the deposited data

Results flagged for a closer look

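Among 24 groups of 4 arteries examined, over levels and ratios of the chains, 3 held an artery far from its group by Dixon's 95% critical value, where chance gives about 1.2. The groups are not independent, as Col6a1 and Col6a2 kept nearly the same ratio, so 3 against 1.2 is not read as an excess. Control artery 4 stood apart in the level of Col6a1, where the gap to the nearest control was 0.964 of the range of the controls (685.0 CPM against 1864 CPM). It stood apart in the same way in Col6a2, with a gap of 0.93 of the range (796.6 CPM against 2056 CPM). Control artery 1 stood apart in the ratio of Col6a6 to Col6a5, with a gap of 0.953 of the range (726 against 49.76), and Col6a5 had a count of 1 in that artery.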

How the results depend on the processing

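The number of genes called, 1562, was 1007 with at least 10 counts in every artery, 2470 at the FDR alone, 661 in a test against a fold of 2 and 2150 with DESeq2, and it lay between 1142 and 2398 with 1 artery left out, highest without control artery 4. Of the 5 chains, 1 was called; 0 were called in the test against a fold of 2, and 0 to 1 with 1 artery left out, where Col6a3 lost the call without control artery 1, control artery 2, injured artery 2 or injured artery 4. Library totals alone called 1432 genes higher and 248 lower, against 1193 and 369. The log2 fold change of Col6a2 turned to -0.04 with libraries scaled to Col6a1, and that of Col6a6 to 0.07 with library totals and to between -0.39 and 0.12 with 1 artery left out. Receptors called went from 1 to 2 at the FDR alone and to 0 against a fold of 2, where partners called went from 3 to 0. The log2 differences of the ratios with 1 artery left out were -0.06 to -0.03 for Col6a2 to Col6a1, 0.94 to 1.07 for Col6a3 to Col6a1, 1.00 to 1.11 for Col6a3 to Col6a2, -0.71 to 0.92 for Col6a5 to Col6a3, -1.57 to -1.31 for Col6a6 to Col6a3 and -2.44 to -0.81 for Col6a6 to Col6a5. Their adjusted p by exact permutation fell to 0.0429 without control artery 2 and without control artery 4, in 4 of the 6 ratios each, Col6a6 to Col6a5 being an exception in the former and Col6a2 to Col6a1 in the latter, beside Col6a5 to Col6a3 in both. For ratios already at the smallest p, this fall came from 1 more ratio reaching it. The difference of Col6a3 to Col6a1 was 0.99 without control artery 2, against 1.01 with all arteries. The test against a fold of 2 allows fewer calls by construction, and the FDR alone allows more. The filter of 10 counts in every artery also changes which genes are tested, and 973 of its 1007 calls were also made without it. The causes of the other changes were not tested. Depth limits Col6a5 and Col6a4, which had at most 63 counts in an artery.

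A fit with the replicate block called 1188 genes, of which 1138 were also called without it, 2 partners and 2 genes of biosynthesis and cleavage against 3 and 3, and 0 of the 5 chains, as Col6a3 had a log2 fold change of 1.43 (FDR 0.0604). No label ties a number to a rat, so the numbers were not taken as pairs. From 1 to 4, the correlation between the deviations from group means of arteries with a shared number was 0.301, 0.450, -0.520 and -0.416. Control artery 4 and injured artery 3 stood apart and move the group means behind the deviations, so these values cannot decide on pairing. For paired differences of 4 ratios an exact sign-flip test gave p = 0.125, the smallest it allows.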
